A study of Mus musculus with 4 samples.

Results

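The genes described here are 9 factors that the liver secretes or that act in the activin system: Fgf21, Gdf15, the inhibin beta subunit genes Inhba, Inhbc and Inhbe, the activin antagonist gene Fst, and the hepatokine genes Lect2, Ahsg and Fetub. They were chosen by name, from known roles and with results of the IlrunKO against WT contrast already in view, and every probe carrying one of these names was taken. All 9 were on the array with 1 probe each, out of 31709 genes and 39429 probes. Liver RNA came from male C57BL/6 mice on chow that had been fasted for 4 h: 4 mice lacked Ilrun throughout the body (IlrunKO), and 4 were WT controls. Each of 4 Agilent arrays carried 1 IlrunKO and 1 WT liver in opposite dyes, with IlrunKO in Cy5 on arrays 1 and 2 and in Cy3 on arrays 3 and 4. Because the deletion is global, it is not limited to hepatocytes; age, littermate status and any pooling of mice were not stated in the sources at hand. Values come from whole liver, where fewer cells of a type and less RNA per cell cannot be told apart.

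Hepatokines are proteins released by the liver that act on other organs. FGF21 is induced in liver by fasting through PPARalpha and by amino acid and endoplasmic reticulum stress through ATF4, and signals through FGF receptors with beta-klotho. GDF15, a distant member of the TGF-beta family, is induced by cell stress and lowers food intake through GFRAL in the hindbrain. Inhibin beta chains pair to form activins: Inhba encodes the subunit of activin A, while Inhbc and Inhbe, expressed mainly in liver, encode those of activins C and E. Activins bind type II and type I receptors that phosphorylate SMAD2 and SMAD3, and follistatin, the product of Fst, binds and blocks them.

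The sequences that follow are those read by the probes and the regions just upstream of the transcription starts. The Inhba probe is shown whole because its target lies in the coding part of the mature activin A chain; it maps to the plus strand at chr13:16118634-16118693 of mm9, the build of the files:
Inhba probe: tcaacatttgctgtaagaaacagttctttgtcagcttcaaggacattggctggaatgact
The first 30 bases of the Fgf21 probe (minus strand, chr7:52869305-52869364 of mm9) are shown because its base composition stands apart:
Fgf21 probe: tttttgggtttccacttatttattacgggt
Over all 60 bases of the Fgf21 probe the GC content was 20.0%, against 41.7% for the median of all probes, and 0.17% of probes had less. The bases shown are richer in G and C than the rest of the probe. GC content of the other 8 member probes ran from 35.0% to 51.7%. The remaining probes mapped in mm9 to chr8:73153293-73153352 (Gdf15, minus strand), chr10:126793865-126793924 (Inhbc, minus), chr10:126786719-126786778 (Inhbe, minus), chr13:115243565-115243624 (Fst, minus), chr13:56643829-56643888 (Lect2, minus), chr16:22899415-22899474 (Ahsg, plus) and chr16:22939736-22939795 (Fetub, plus). Inhbc and Inhbe are neighbours, with probes 7.1 kb apart, as are Ahsg and Fetub, which encode the paralogous fetuins A and B and have probes 40.3 kb apart.

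RefSeq start regions (GRCm38.p6, 250 bases before to 50 after each start) were found for 8 of the 9 members, all but Fst, with a second start for Gdf15 and for Fetub. They were searched on both strands for TGATGNAA, a core of the CEBP-ATF elements that ATF4 binds, for TATAAA and for CACGTG, the E-box core. The upstream stretches of Fgf21, Gdf15 and Inhba, whose transcripts were lowest relative to WT, and of Inhbe, which shares a motif with Fgf21, are printed in the direction of transcription with matches to TGATGNAA (reverse strand) and TATAAA in capitals.
Fgf21, chr7:45615491-45615640, minus strand, positions -150 to -1: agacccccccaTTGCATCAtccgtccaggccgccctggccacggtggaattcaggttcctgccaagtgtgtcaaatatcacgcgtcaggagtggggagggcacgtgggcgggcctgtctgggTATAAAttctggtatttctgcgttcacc
Inhbe, chr10:127351899-127352048, minus strand, positions -200 to -51: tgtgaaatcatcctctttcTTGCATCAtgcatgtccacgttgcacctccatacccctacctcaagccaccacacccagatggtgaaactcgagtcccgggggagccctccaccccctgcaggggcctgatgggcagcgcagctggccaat
Gdf15, chr8:70632457-70632606, minus strand, positions -150 to -1: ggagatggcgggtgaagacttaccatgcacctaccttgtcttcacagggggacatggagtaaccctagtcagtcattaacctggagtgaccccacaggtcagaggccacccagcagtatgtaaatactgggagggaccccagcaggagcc
Inhba, chr13:16011701-16011850, plus strand, positions -150 to -1: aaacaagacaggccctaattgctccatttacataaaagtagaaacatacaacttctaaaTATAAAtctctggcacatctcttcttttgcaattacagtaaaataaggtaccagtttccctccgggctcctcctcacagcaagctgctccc
TGATGNAA was present in the windows of 2 members, Fgf21 (first base at -139) and Inhbe (-181), and in 3.97% of all 32851 start regions. TATAAA, found in 13.6% of all start regions, lay at -28 in Fgf21, -31 in Fetub and -91 in Inhba. CACGTG, found in 7.15% of them, lay at -50 in Fgf21 and at -83 of the second Gdf15 start. A match describes these letters only, and binding was not measured.

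The labels were checked first on the deleted gene. The brighter Ilrun probe was 18.5-fold lower in IlrunKO than in WT livers, with log2 ratios of -4.12, -4.11, -4.04 and -4.56 on arrays 1 to 4. After loess normalisation within each array, 19671 genes were tested with limma, namely those whose probe was well above background in 3 or more channels of either genotype, with p-values adjusted by Benjamini-Hochberg over all of them. At an adjusted p under 0.05, 139 genes rose and 122 fell in IlrunKO livers. All 10 hepatocyte markers, among them albumin (Alb) and transthyretin (Ttr), were above background, with a summed linear intensity of 1120000 to 1652000 in IlrunKO and 1447000 to 1800000 in WT livers. Of 7 adipocyte markers, Adipoq, Lep and Plin1 were above background in no channel, and Cfd rose (log2 ratio 3.82), while Lipe was at 0.21, Retn at 0.14 and Fabp4 at -0.11, none of which passed. The list summed to 2695 to 7807 in IlrunKO and 1310 to 1595 in WT livers, and its part in the results was not tested. Of 6 exocrine pancreas markers, Cpa1 and Pnlip were above background in no channel, and the list summed to 416 to 560 in IlrunKO and 422 to 516 in WT livers.

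All 9 members had fitted IlrunKO over WT ratios below 0, as had 50.6% of all genes tested. Their median log2 ratio was -0.31, beside -0.0015 over all genes, and per array it was -0.84, -0.38, -0.34 and -0.37. Medians of the cell type marker lists lay on both sides of 0. That of the 10 hepatocyte markers was -0.36, with 8 below 0 and none passing. Per array it was 0.36, 0.13, -0.66 and -0.49. The median of the 8 stellate markers was -0.29 and that of the 7 endothelial markers -0.12. Medians were 0.41 for 8 Kupffer cell and macrophage markers, 0.18 for 4 adipocyte and 0.03 for 3 exocrine pancreas markers tested. Their part in the members' values was not tested. Of the members, 3 passed the test as lower in IlrunKO livers, Fgf21, Gdf15 and Inhba, and none rose; across all genes tested, 0.62% fell and 1.33% changed in either direction. Ratios were below 0 on all 4 arrays for 4 members, the same 3 and Fetub, and for 11.5% of all genes. In Fgf21, Inhba and Fetub all 4 IlrunKO levels lay below all 4 WT levels, as in 4.19% of all genes. Since the members were selected on this contrast, these counts describe them and carry no weight as a test. Fgf21 entered the test through its WT channels alone, with no IlrunKO channel well above background, and its call adds nothing to the count. The other 8 members were well above background in all 4 channels of each genotype.

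**Figure D1:**
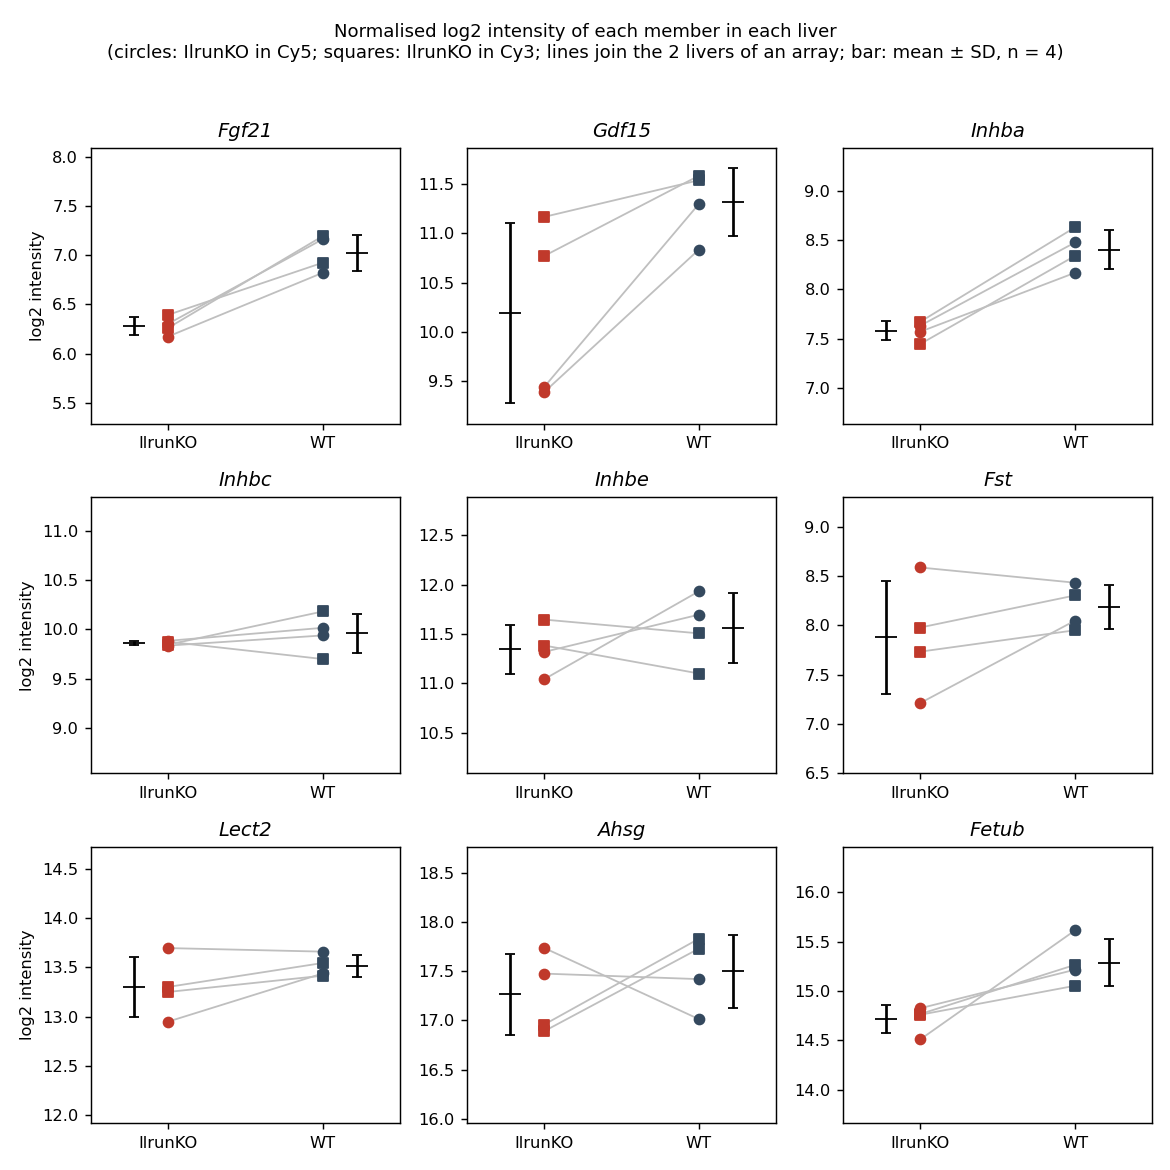
Normalised log2 intensity (vertical axis, with its own range in each panel) of the 9 members in 4 IlrunKO livers (left, red) and 4 WT livers (right, dark blue); lines join the livers of an array, circles mark arrays with IlrunKO in Cy5 and squares those with IlrunKO in Cy3, and bars show mean ± SD. The groups separate fully for Fgf21, Inhba and Fetub, while the 2 lowest Gdf15 values and the 2 highest Ahsg values in IlrunKO livers belong to arrays 1 and 2.

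Fgf21, the fasting-induced hormone, was not well above background in any IlrunKO liver and was so in every WT liver. Its signal after Agilent's background subtraction was 9.29, 7.34, 7.71 and 8.78 intensity units in the IlrunKO channels of arrays 1 to 4. In the WT channels it was 108.8, 60.1, 62.3 and 72.6. Every WT value thus exceeded every IlrunKO value by a wide margin. On the log2 scale with a background offset of 50, the level averaged 6.28 ± 0.09 in IlrunKO livers and 7.03 ± 0.18 in WT livers (SD, n = 4 each). Each of these IlrunKO levels lay above the lowest IlrunKO level called well above background on its array (5.83 to 6.19 over the arrays). That floor therefore sets no minimum for the fall. The fitted log2 ratio was -0.74, or 1.67-fold lower (adjusted p = 0.0438 in limma). Since Fgf21 entered the test through its WT channels alone, this adjusted p carries no weight as a test. The 4 array ratios were -0.86, -0.65, -0.53 and -0.93, and arrays of both dye orientations overlapped. For this dim probe the size varied with the processing. The fitted log2 ratio was -1.63 with an offset of zero, -1.31 in the authors' deposited values and -3.16 from Agilent's processed signals. The last 2 settings replaced more steps than the offset, and the part of each step was not tested. It no longer passed without background correction, under median centring or with any 1 array left out.

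Gdf15, the stress-induced hormone, was lower in IlrunKO livers on every array, by amounts that varied more between arrays than those of Fgf21 or Inhba. Its log2 level was 9.39, 9.44, 10.77 and 11.17 in IlrunKO livers, against 10.84, 11.30, 11.59 and 11.54 in WT livers. The IlrunKO livers of arrays 1 and 2 were far below the rest, while the IlrunKO liver of array 4 was above the lowest WT liver, so the groups overlapped. Within each array IlrunKO was lower, by log2 ratios of -1.45, -1.86, -0.81 and -0.37. The fitted ratio was -1.12, or 2.18-fold lower (95% interval -1.40 to -0.84, adjusted p = 0.0351). This interval takes its error from the spread within each dye orientation; the SD of the 4 ratios was 0.66, and without a dye term in the fit Gdf15 did not pass. It also did not pass without background correction, with Agilent's processed signals, under median centring, or without array 3 or array 4.

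Inhba, the activin A subunit, was lower in IlrunKO livers on every array, least so on array 2. Its processed signal was 145, 142, 168 and 128 intensity units in IlrunKO livers, against 352, 269, 435 and 302 in WT livers. No IlrunKO value came near the lowest WT value. The log2 level averaged 7.58 ± 0.10 in IlrunKO and 8.40 ± 0.20 in WT livers (SD, n = 4 each), and array ratios were -0.84, -0.60, -0.96 and -0.89. The fitted ratio of -0.82, or 1.77-fold lower, had a 95% interval of -0.98 to -0.67 and an adjusted p of 0.0351. Inhba kept its call under 12 of 15 alternatives, the exceptions being median centring and the fits without array 3 or array 4. Stellate cells are a known source of activin A in liver. All 8 stellate markers, among them Lrat, Dcn and Des, had fitted ratios below 0 with a median of -0.29, though none passed, and their summed intensity was 35870 to 57920 in IlrunKO and 52210 to 62800 in WT livers. All 8 Kupffer cell and macrophage markers, by contrast, had ratios above 0 with a median of 0.41, again with none passing, and summed to 40220 to 60630 in IlrunKO and 30510 to 49670 in WT livers. Their part in the Inhba result was not tested.

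The activin subunit genes expressed mainly in hepatocytes did not pass the test. Inhbc, the activin C subunit, had levels of 9.88, 9.83, 9.84 and 9.87 in IlrunKO livers, against 10.01, 9.94, 10.18 and 9.70 in WT livers. The IlrunKO livers were almost identical to each other and lay inside the WT range. Its fitted log2 ratio of -0.10 (95% interval -0.34 to 0.14, adjusted p = 0.620) allows a fall or rise of modest size. Inhbe, the activin E subunit, had levels of 11.04, 11.32, 11.65 and 11.38 in IlrunKO livers, against 11.93, 11.70, 11.51 and 11.10 in WT livers. Its ratios were below 0 on arrays 1 and 2 (-0.89 and -0.38) and above 0 on arrays 3 and 4 (0.14 and 0.28). The fitted ratio was -0.21 (95% interval -0.46 to 0.04, adjusted p = 0.307). As for Gdf15, this interval takes its error from the spread within each dye orientation, while the SD of the 4 ratios was 0.54. In limma without the dye term the adjusted p was 0.714. Fgf21, which also has a TGATGNAA match upstream, had ratios below 0 on all 4 arrays. Any part of the motif in these ratios was not tested.

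Fst, whose product follistatin neutralises activins, varied widely among IlrunKO livers. Its levels were 7.21, 8.59, 7.73 and 7.98 in IlrunKO livers, with an SD of 0.57, against 8.05, 8.43, 7.95 and 8.30 in WT livers, with an SD of 0.22. Array 1 gave a ratio of -0.84, array 2 gave 0.15, and arrays 3 and 4 gave -0.22 and -0.33. The fitted ratio of -0.31 did not pass (95% interval -0.74 to 0.13, adjusted p = 0.381); without array 2 it was -0.55 and passed.

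**Figure D2:**
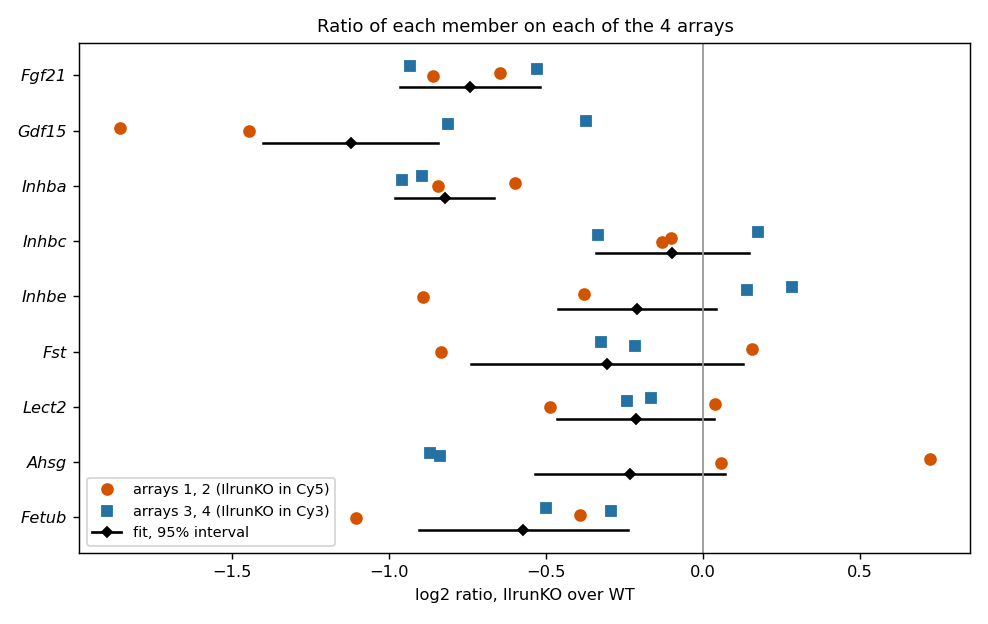
Log2 ratio of IlrunKO over WT (horizontal axis) of each member on each array, with orange circles for arrays 1 and 2, blue squares for arrays 3 and 4, and black diamonds with lines for the limma fit and its 95% interval. All 9 diamonds are left of 0; the colours separate for Gdf15, Inhba, Inhbe and Ahsg, by the least for Inhba, and mix for Fgf21.

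Fetub encodes fetuin-B, a cystatin-family inhibitor of the egg protease ovastacin that is also studied as a hepatokine. Its levels were 14.51, 14.83, 14.76 and 14.77 in IlrunKO livers, against 15.62, 15.22, 15.05 and 15.27 in WT livers. The groups did not overlap, and ratios ran from -1.11 on array 1 to -0.29 on array 3. The fitted ratio of -0.57, or 1.49-fold lower (95% interval -0.90 to -0.24), did not pass (adjusted p = 0.109). Of the members that did not pass, Fetub lay nearest to the threshold, and it passed without array 2 (-0.75) and in the separate-channel model.

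Ahsg encodes fetuin-A, an abundant plasma protein that binds calcium phosphate and can inhibit the insulin receptor. Its levels were 17.48, 17.74, 16.89 and 16.96 in IlrunKO livers, against 17.42, 17.01, 17.73 and 17.83 in WT livers. Its ratios were 0.06 and 0.72 on arrays 1 and 2 and -0.84 and -0.87 on arrays 3 and 4. The fitted ratio was -0.23 (95% interval -0.53 to 0.07, adjusted p = 0.346). As for Gdf15, this interval takes its error from the spread within each dye orientation, while the SD of the 4 ratios was 0.77. In limma without the dye term the adjusted p was 0.792. The 10 hepatocyte markers had medians of 0.36, 0.13, -0.66 and -0.49 on arrays 1 to 4. Ahsg thus had the sign of the list median on every array. Among single markers, Alb, Ttr, Serpina1c and Apoa2 had this order of signs. Apoa1 and Tat were below 0 and Asgr1 above 0 on all 4 arrays, and Trf, Fabp1 and Cps1 had other orders. The part of the dyes or of these pairs of livers was not tested. Its genomic neighbour Fetub did not change sign between the orientations.

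Lect2, a hepatocyte-secreted factor first described as attracting neutrophils, had levels of 12.95, 13.70, 13.30 and 13.25 in IlrunKO livers, against 13.44, 13.66, 13.54 and 13.42 in WT livers. The IlrunKO values enclosed all WT values. Its ratios of -0.49, 0.04, -0.24 and -0.17 gave a fitted value of -0.21 that did not pass (95% interval -0.47 to 0.04, adjusted p = 0.300).

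Whether the ratio differed between arrays 1 and 2 and arrays 3 and 4 was tested with the orientation term of the same fit, which the choice of members did not use. No member and no gene passed (0 of 19671 genes, 0%), while 3 members and 3598 genes (18.3%) had an unadjusted p under 0.05 in limma. The difference, arrays 1 and 2 minus arrays 3 and 4, was 1.24 for Ahsg (adjusted p = 0.128), -1.06 for Gdf15 (adjusted p = 0.134) and -0.85 for Inhbe (adjusted p = 0.151). Its absolute size had a median of 0.20 over the members and 0.15 over all genes tested. Dye and pair of mice cannot be told apart in this term. Fgf21, with a difference of -0.02, and Inhba, with 0.20, had smaller differences. The normalisation moved these values: under median centring the difference was 2.97 for Ahsg, which then passed (adjusted p = 0.0314), and -0.18 for Gdf15, and with Agilent's processed signals it was 0.57 for Ahsg.

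The genes around the members were read from 6 lists drawn from textbook roles. Of 13 other ligands and antagonists of the activin and TGF-beta family tested out of 18, 12 had ratios below 0, none passed, and the median was -0.10. The smallest p-values belonged to Bmp2 (-0.31, adjusted p = 0.0956), the endothelial signal for hepcidin expression, to Tgfb3 (-0.19), to the follistatin-like gene Fstl1 (-0.22) and to Gdf2 (-0.19), which encodes BMP9. Inhbb, the fourth inhibin beta subunit gene, was tested and did not pass, and Inha and Mstn were not tested. None of 18 receptors, Smads and their inhibitors passed, with a median of -0.09. Bmpr1a had a ratio of -0.25, the activin receptor Acvr2a -0.25, the type I receptor Tgfbr1 -0.32 and Smad5 -0.15, each with an adjusted p of at least 0.109.

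Among 11 tested genes for receptors and processing enzymes of FGF21 and GDF15, Fgfr4 fell and none rose, and the median was 0.01. Fgfr4, the main FGF receptor of hepatocytes, had array ratios of -0.65, -0.62, -0.59 and -0.31 and a fitted ratio of -0.55 (1.46-fold lower, adjusted p = 0.0438). Fgfr1, the receptor that FGF21 uses with beta-klotho in fat, had ratios of 0.51, 2.13, 0.93 and 0.80 and did not pass (1.09, adjusted p = 0.125). It passed without array 1 (adjusted p = 0.0172), without array 2 (0.69, adjusted p = 0.0366) and in the separate-channel model (adjusted p = 0.0150), and was 0.53 as the mean of its probes, where it did not pass; its adjusted p ran from 0.0150 to 0.392 over the alternatives. The proprotein convertase gene Pcsk6 (0.37, adjusted p = 0.100) and Fgfr3 (-0.17) did not pass. Klb, the beta-klotho gene, was tested and did not pass (-0.03, adjusted p = 0.905), with array ratios of 0.68, 0.19, -0.63 and -0.36. Gfral, Ret and Kl were not tested.

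Of 23 genes that regulate Fgf21 and Gdf15 or share their stress inputs, 2 fell and none rose, with a median of -0.09. Chac1, a glutathione-degrading enzyme induced through ATF4, had array ratios of -1.07, -0.78, -1.09 and -0.74 and was 1.89-fold lower (-0.92, adjusted p = 0.0351). Atf5, a stress-responsive transcription factor gene, had ratios of -0.72, -1.04, -0.93 and -0.71 and was 1.80-fold lower (-0.85, adjusted p = 0.0351). Trib3, a pseudokinase gene that ATF4 also induces, lay on the other side, with ratios of 1.42, 0.74, 0.59 and 0.77, and did not pass (0.88, adjusted p = 0.0552). The fitted ratios of Chac1 and Trib3 thus had opposite signs, and any part of ATF4 in the ratios of this list was not tested. The nuclear receptor gene Rora was at -0.29 (adjusted p = 0.0611). Atf4 itself and Ppara did not pass.

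Of 24 other tested genes for liver-secreted factors, Dpp4 fell and none rose, with a median of -0.02. Dpp4, a protease that inactivates incretins, had ratios of -0.04, -0.09, -0.68 and -0.76 and a fitted value of -0.39 (1.31-fold lower, adjusted p = 0.0444). Both larger ratios came from arrays 3 and 4, and without the dye term Dpp4 did not pass (adjusted p = 0.278; range over the alternatives 0.00448 to 0.282). Igfbp1, an insulin-suppressed binding protein for insulin-like growth factors, spanned -2.31 to -0.67 across arrays and did not pass (-1.42, adjusted p = 0.109). Angptl8, a feeding-induced regulator of lipoprotein lipase, was at 0.56 (adjusted p = 0.0519) and Igfbp2 at 0.66 (adjusted p = 0.0552). None of 6 tested relatives of the fetuins and their target passed: the insulin receptor gene Insr was at -0.24, cystatin C (Cst3) at -0.10, Hrg at 0.21 and Kng1 at -0.18, and the median was -0.12.

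**Figure D3:**
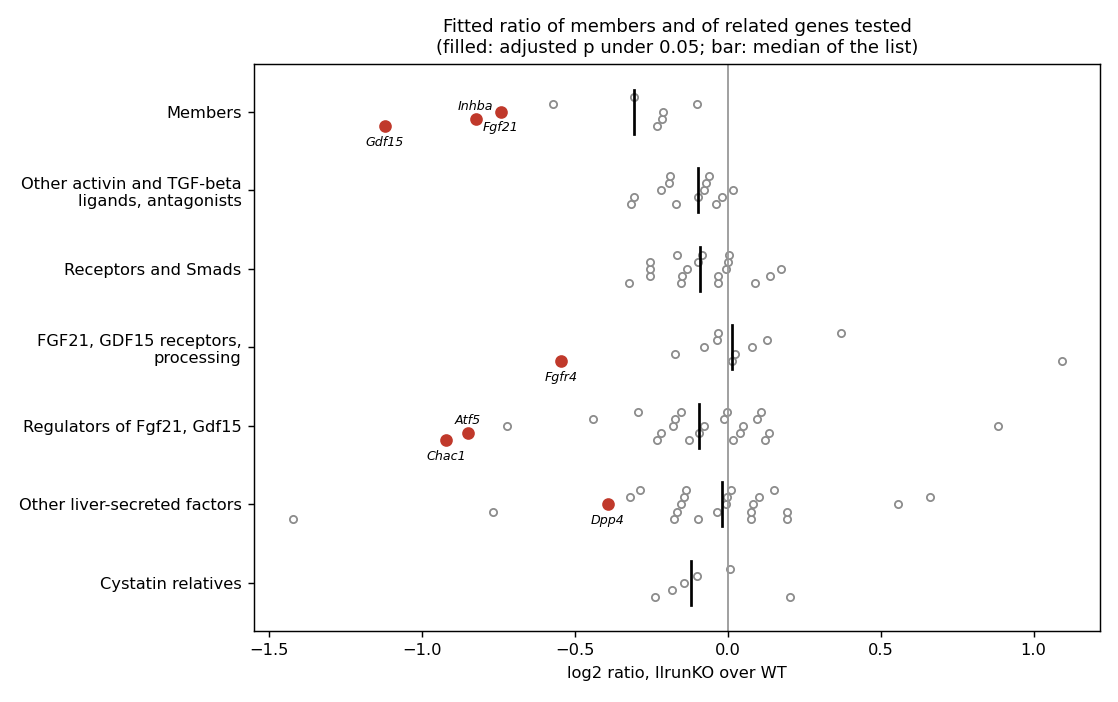
Fitted log2 ratio of IlrunKO over WT (horizontal axis) of the 9 members and of each tested gene of 6 related lists (rows), with filled red points for adjusted p under 0.05, open points for the rest and a bar at each median; vertical offsets within a row only separate points. The medians are -0.31 for the members and -0.12 to 0.01 for the 6 lists. Those of the cell type markers, not plotted, ran from -0.36 (hepatocyte) to 0.41 (Kupffer cell and macrophage). Apart from the members, the filled points are Fgfr4, Chac1, Atf5 and Dpp4.

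The genes most like each member that fell were found by the root mean square difference of the 4 array ratios, over all other tested genes with a symbol. Closest to Fgf21 were Rhox5 (0.13), Dnase2b (0.14) and Camk2n2 (0.16). Gdf15, with its deeper ratios on arrays 1 and 2, was nearest to Ppp1r3g (0.24), Cyp39a1 (0.26) and Gm4013 (0.28). Ppp1r3g, a glycogen-targeting subunit of protein phosphatase 1, had ratios of -1.55, -1.53, -0.53 and -0.52. Cyp39a1, an oxysterol hydroxylase of bile acid synthesis, had ratios of -1.87, -1.94, -0.52 and -0.30. For Inhba they were Kynu (0.14), the kynureninase gene, H2-Q10 (0.16), a liver-secreted class I molecule, and Nkg7 (0.17), a cytotoxic granule gene.

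The fitted ratios of Fgf21, Gdf15, Inhba and Fetub were below 0 under every alternative in which they were tested, from -1.26 to -1.01 for Gdf15, from -1.21 to -0.76 for Inhba and from -0.75 to -0.39 for Fetub. Without array 3 or without array 4, however, no member passed, and 1 gene of all those tested did, the deleted gene Ilrun. Of the related genes, Chac1 and Atf5 lost their call under 5 of the 15 alternatives, namely no background correction, Agilent's processed signals, median centring, and without array 3 or array 4. Fgfr4 lost it under 8 and Dpp4 under 9, both of them also whenever any 1 array was left out. Trib3 in turn passed, as higher in IlrunKO livers, under 6, among them the deposited values and the fits without array 1 or array 2.

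**Figure D4:**
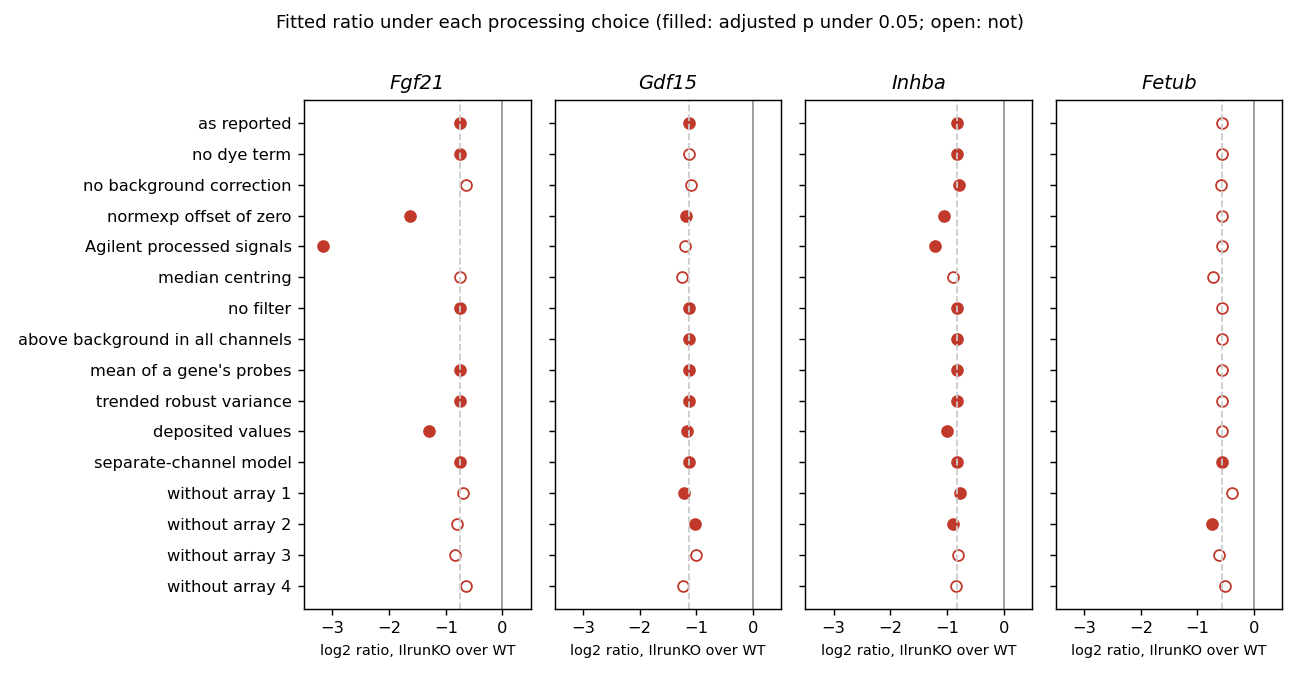
Fitted log2 ratio of IlrunKO over WT (horizontal axis) of Fgf21, Gdf15, Inhba and Fetub under the reported processing and each alternative (rows), filled where the adjusted p was under 0.05; the dashed line marks the reported value. Points stay left of 0 in all panels, the range is widest for Fgf21 (-3.16 to -0.64), and no point is filled without array 3 or array 4.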

How the data were processed

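The labels give genotype and dye for every channel. The authors deposited scanner files with raw and processed intensity per channel and a log10 value (Cy5 over Cy3). Per the file headers these came from Agilent Feature Extraction, version 10.10.1.1, whose flags mark spots well above background, as outliers or as saturated. They also deposited a table of log2 ratios, here an alternative; compared with the scanner ratio (r = 0.956, 0.943, -0.943 and -0.952 on arrays 1 to 4), it runs as IlrunKO over WT on every array. Limma is named in the submitters' processing notes. How that table was background-corrected and normalised is not stated in the sources at hand.

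Raw intensity was corrected with normexp (offset 50) and loess-normalised within arrays in limma 3.58.1 (R 4.3.3), with 1377 control spots at weight 0 and outlier spots left out (224 to 381 per array; none in members). Spots of a probe were averaged and the brightest probe stood for a gene. The lmFit and eBayes model had a dye and a genotype term, 2 residual and 2.81 prior degrees of freedom, and each ratio pairs the 2 livers of an array; no pairing beyond the array was used. The number of arrays limits the precision. Benjamini-Hochberg adjustment covered all genes tested, two-sided. The script was tested on simulated data.

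Members, lists, tests and alternatives were chosen with earlier results of these data known. Named were every member, Ilrun, the passing genes and otherwise up to 4 with the smallest p of each list, and the 3 genes most like each member that passed. Inhbb, Klb, Atf4, Ppara, genes not tested and single cell type markers were named besides, for their known roles and after their values were seen. Probe positions are those of the files (mm9); exons were not assigned. Sequences are from the files and from RefSeq (GRCm38.p6).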

Additional observations from a re-analysis of the deposited data

Results flagged for a closer look

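For Ahsg and Inhbe the ratio of IlrunKO over WT had opposite signs in the 2 dye orientations, with both arrays of an orientation on the same side. The Ahsg difference, arrays 1 and 2 minus arrays 3 and 4, was 1.24 (mean ratios 0.39 and -0.85), and the Inhbe difference was -0.85 (mean ratios -0.64 and 0.21). Neither passed the orientation term of the limma fit after adjustment over all genes (adjusted p = 0.128 and 0.151). Dye and pair of mice cannot be told apart. Among 27 sets of 4 values examined for a sample far from the others (the members' levels in each genotype and their ratios), none was found.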

How the results depend on the processing

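The 15 alternatives changed 1 step each, except that Agilent's processed signals and the deposited values each replaced background correction and normalisation together (the deposited values the spot filter too), and that trend and robust variance were set together. As reported, 261 genes changed, 3 members fell, and 4 genes of the related lists fell while none rose. Without background correction 75 genes changed, 1 member fell and 0 list genes fell; with Agilent's processed signals 82 genes changed and 0 list genes fell. Median centring in place of loess left 1 changed gene, the deleted Ilrun, with 0 members and 0 list genes. It put 5501 genes and 1 member (Ahsg) past the orientation term and shifted the median of all genes by -0.05. It also turned the Inhbe orientation difference to 0.088. The share of calls that were higher in IlrunKO was 0% there and 53.3% as reported. The trended robust variance gave 412 changed genes and 3 rising list genes, the deposited values 448 and 3, and the separate-channel model 2483, with 10 list genes falling and 4 rising. An offset of zero and the filter on all channels each gave 1 rising list gene; without a filter 1 gene passed the orientation term. Leaving out each array in turn gave 1 to 450 changed genes, 0 to 4 falling members (0 to 3 falling member probes), 0 to 7 falling and 0 to 4 rising list genes; the low ends came without array 3 or array 4. Without array 1, 64.4% of calls were higher. The Inhbc ratio ran from -0.23 without array 4 to 0.029 without array 3. Fgf21, not above background in IlrunKO livers, was not tested where all channels had to be. The ratios already pair the 2 livers of each array; no further pairing was fitted, since the 2 orientations share no replicate number. The causes of these changes were not tested.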
